A study of Danio rerio with 6 samples.

Results

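Collagen genes were examined in RNA-seq of zebrafish larvae that lack the purinergic receptor gene p2ry11. All rows whose gene name starts with col and a digit were taken, which gave 53 of the 19071 listed genes. Of these, 51 were collagen chain genes of 21 collagen types. The other 2 rows, col4a3bpa and col4a3bpb, carry an old name of the ceramide transporter CERT1 and encode no collagen, so they were kept apart. All 51 collagen genes had a mean of at least 0.5 FPKM (sequenced fragments, corrected for the length of the transcript and the size of the library) and were tested. The symbols col6a3 and col19a1 each stood on a pair of gene IDs, and reads of such copies may be shared between them, so their levels are uncertain.

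P2RY11 mutants, labelled p2ry11 knockout (p2ry11-/-), were compared with their WT siblings from the same heterozygous intercross, with 3 libraries of pooled whole larvae in each group. The mutant allele is a short CRISPR-Cas9 frameshift deletion carried in every cell. Both groups were raised in methylene blue E3 medium and taken at 3 days post fertilization (dpf). Whether the pools were independent clutches is not stated in the sources used here, so every p-value reflects only library-to-library spread, which may be technical. The targeted gene stood at 0.707, 0.853 and 1.02 FPKM in the WT siblings and had a listed value of 0 in each mutant (exact permutation test, two-sided p = 0.1, the smallest that 3 against 3 allows).

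Collagens are trimeric proteins of the extracellular matrix whose chains wind into a triple helix. Fibrillar collagens (here types I, II, V, XI, XXIV and XXVII) build the ropes of skin, bone, tendon, notochord sheath and cartilage, type IV forms the sheet of basement membranes, and type VI forms beaded microfibrils around muscle and connective tissue cells. Fibril-associated collagens (FACITs, such as types IX, XII and XIV) decorate the fibrils, types VIII and X form networks, and type XVII spans the membrane of basal skin cells. In zebrafish larvae, skin, fin fold, notochord, head cartilage and fibroblasts of the muscle segments are main sources. In whole-larva RNA, fewer cells of a type and less RNA per cell cannot be told apart.

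The third WT sibling library stood apart from the other 5, and this bears on the results below. It was the lowest of the 6 libraries for 48 of the 51 collagen genes, against 47.1% of all 18432 tested genes. Its collagen levels lay below the mean of the other WT sibling libraries by a median of -0.78 on the log2 scale, against -0.12 for all tested genes, and single genes ranged from -2.28 (col24a1) to -0.18 (col4a4). The coefficient of variation of a collagen gene had a median of 33.8% over the 3 WT siblings, 6.41% over WT sibling replicates 1 and 2, and 7.80% over the mutants. WT sibling replicates 1 and 2 resembled each other about as closely as the mutants did, and WT sibling replicate 3 supplied most of the spread of its group. The members col19a1 (ENSDARG00000096073) and col6a3 (ENSDARG00000095915) were listed at 0 in that library. No source used here gives a reason to leave it out, so the comparison of all 6 libraries is the main one, and calls and values without it are given beside the main results. Each library was left out in turn by plan, but this one was singled out by the same collagen levels that are tested. Leaving it out removes most of the WT sibling spread and leaves WT sibling replicates 1 and 2 alone. Genes said to rise, fall or pass without it are therefore descriptive, and their adjusted p do not allow for that choice.

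**Figure D1:**
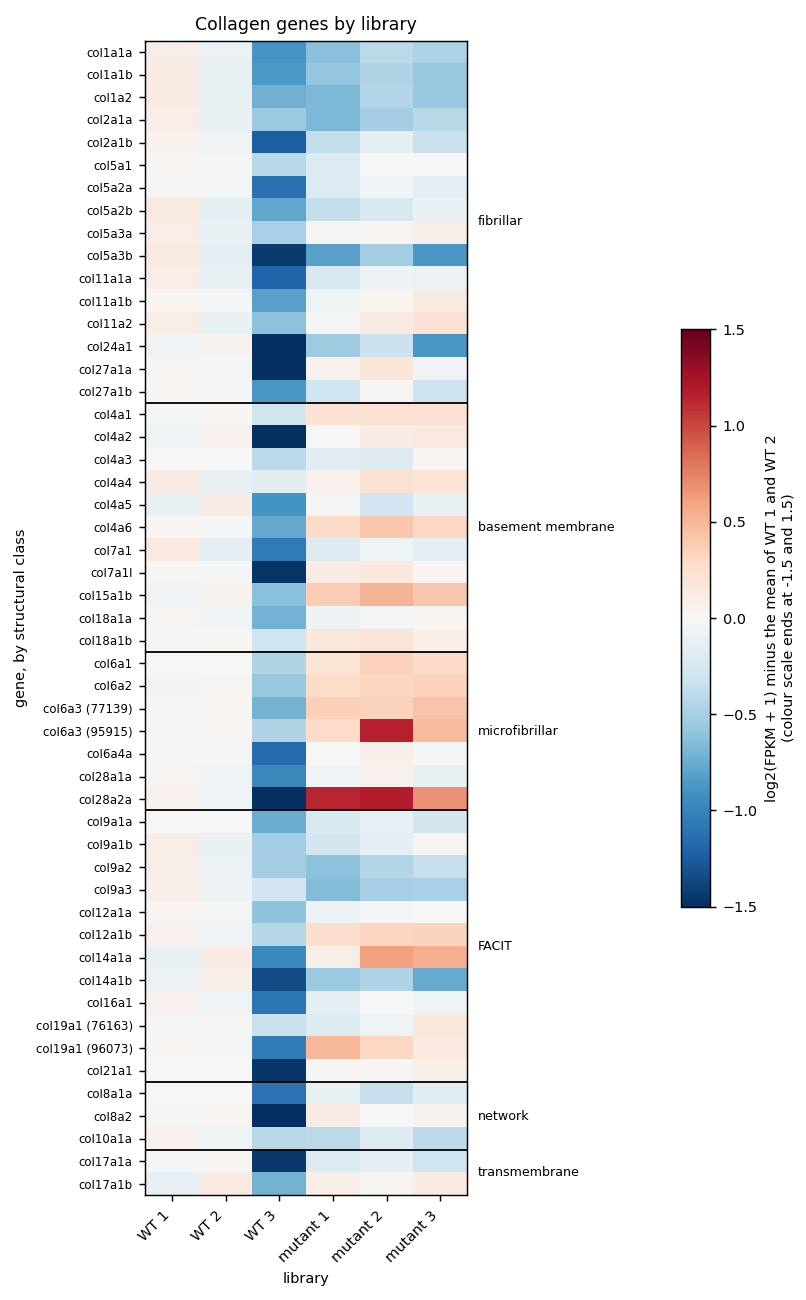
The 51 collagen genes (rows, parted by structural class) in the 6 libraries (columns), as log2(FPKM + 1) minus the mean of WT sibling replicates 1 and 2, with numbers in brackets giving the end of the gene ID where a symbol has a pair of IDs. WT sibling replicate 3 is low in nearly every row (lowest of 6 in 48 of 51), while the mutants are low in type I and col2a1a and high in col6a1, col6a2, both col6a3 rows and col28a2a.

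With all 6 libraries, few collagen genes differed beyond the spread between replicates. Of the 51, 0 rose and 1 fell at an adjusted p under 0.05 (limma on log2(FPKM + 1), Benjamini-Hochberg over all tested genes), where 8.23% of all tested genes rose and 3.98% fell. At an unadjusted p under 0.05, 11 collagen genes differed. The thresholds of the study, an unadjusted p under 0.05 with a fold above 1.5, were applied to the limma p and the difference in log2(FPKM + 1). By them 6 were higher and 0 lower, where 9.51% and 3.28% of all tested genes were. The study's own test was not rerun, so these counts are not those of the study. The median log2 difference, mutant minus WT sibling, was 0.24 for collagens and 0.16 for all tested genes. All 3 mutants lay above all 3 WT siblings for 13 collagen genes and below them for 1, against 35% and 11.7% of all tested genes. Median-of-ratios scaling and quantile normalization brought the median of all tested genes to 0.01, with 668 and 980 genes higher and 1050 and 1310 lower, and the collagen median to 0.08 and 0.18.

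Without WT sibling replicate 3, 7 collagen genes rose and 12 fell, where 20.1% of all tested genes rose and 8.11% fell. The median of the 51 was then -0.04, against 0.11 for all tested genes. Non-overlapping groups numbered 13 above and 15 below, against 41.3% and 16.9% of all tested genes. The genes that fell belonged to types I, II, V, IX, X, XIV, XVII and XXIV, and those that rose to types IV, VI, XII, XV and XXVIII. After quantile normalization of these 5 libraries 4 rose and 11 fell, of which 4 and 10 were among the former, where 12.1% and 11.6% of all tested genes rose and fell. After median-of-ratios scaling 2 rose and 16 fell, of which 2 and 12 were among the former, where 11% and 13.9% of all tested genes rose and fell. The 10 genes that fell under all 3 scalings were col1a1a, col1a1b, col1a2, col2a1a, col5a3b, col24a1, col9a2, col9a3, col14a1b and col10a1a, and the 2 that rose were col15a1b and col28a2a.

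**Figure D2:**
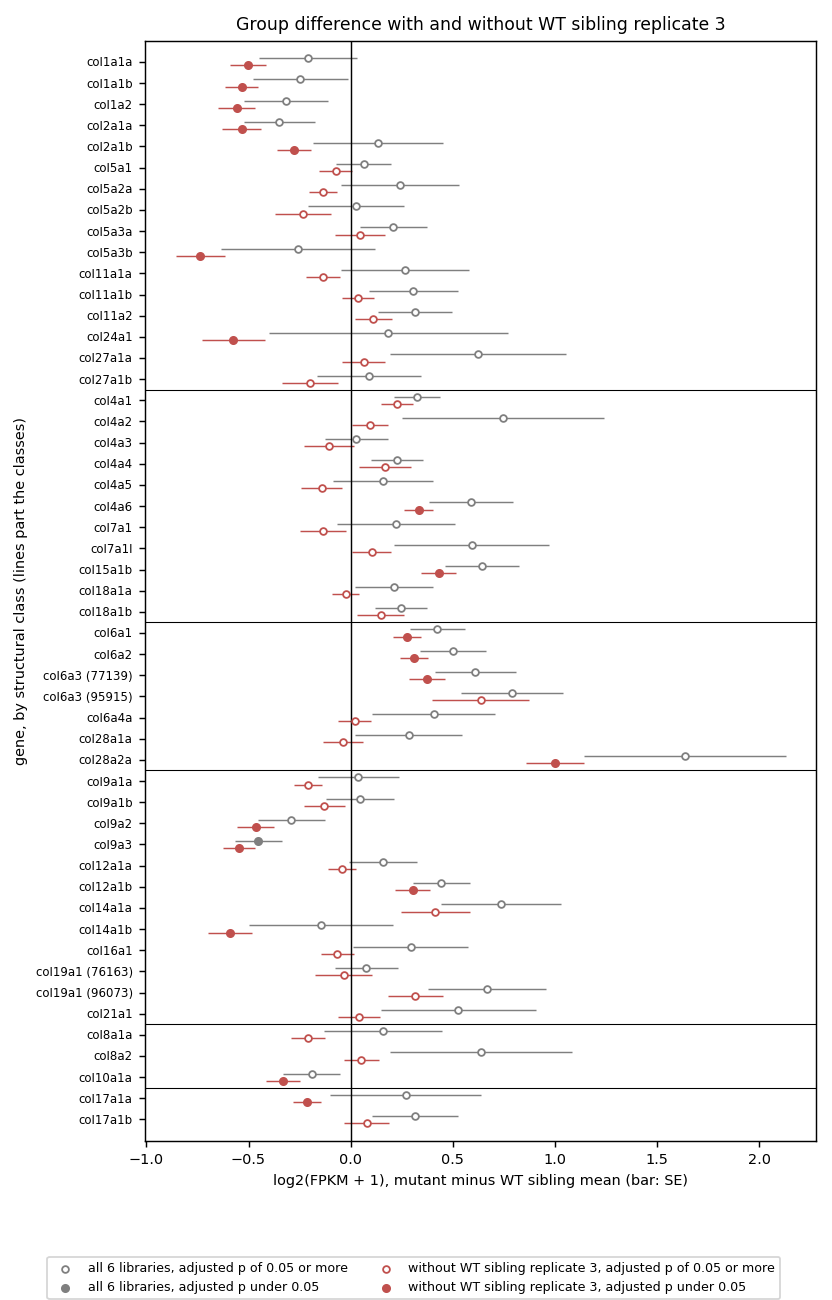
Log2 difference (mutant minus WT sibling) in log2(FPKM + 1) for each of the 51 collagen genes, with bars for the standard error, from all 6 libraries (grey) and without WT sibling replicate 3 (red). Filled points have an adjusted p under 0.05, which is 1 gene (col9a3) with all libraries and 19 without WT sibling replicate 3.

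Fibrillar collagens were the most abundant class, taking from 59.0% to 65.0% of collagen FPKM in a library. None of the 16 passed the test with all libraries (0 at an unadjusted p under 0.05 as well), and the groups overlapped for all 16. The median log2 difference was 0.11 (-0.04 after median-of-ratios scaling), and without WT sibling replicate 3 it was -0.22. In that last fit 7 of 16 were lower and 0 higher, where 8.11% and 20.1% of all tested genes were. The chains of type I collagen, the main collagen of skin, bone and tendon, come from 3 zebrafish genes. For col1a1a, the most abundant collagen gene, levels were 481, 428 and 246 FPKM in the WT siblings and 292, 343 and 326 in the mutants. The mutants lay between WT sibling replicate 3 and the other WT siblings, and the log2 difference was -0.21 (SE 0.24, adjusted p = 0.55). For col1a1b the WT siblings had 355, 306 and 181 FPKM and the mutants 220, 240 and 222. For col1a2, which encodes the alpha 2 chain, the values were 324, 280 and 182 against 189, 222 and 203 FPKM. The same order held in all 3 type I genes, and without WT sibling replicate 3 they fell by 0.50 (SE 0.087, adjusted p = 0.00508), 0.53 and 0.56 on the log2 scale.

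Type II collagen, the main fibrillar collagen of cartilage and the notochord sheath, has 2 genes. The col2a1a levels were 426, 369 and 269 FPKM in the WT siblings and 248, 278 and 297 in the mutants, a log2 difference of -0.35 (SE 0.17, adjusted p = 0.191). Here the mutants and WT sibling replicate 3 overlapped, and the other WT siblings lay above all of them. The second gene, col2a1b, stood at 145, 135 and 59.0 FPKM against 109, 127 and 111, with a log2 difference of 0.13 (SE 0.32) that turned to -0.28 (adjusted p = 0.0379) without WT sibling replicate 3. Direction as well as size therefore rested on that library for col2a1b, and likewise for col24a1 (8.24, 8.95 and 0.979 FPKM against 5.62, 6.69 and 4.25), where 0.18 turned to -0.57 (adjusted p = 0.026).

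Types V and XI regulate the diameter of type I and type II fibrils. The gene with the lowest mutant values relative to WT sibling replicates 1 and 2 was col5a3b, with 85.4, 70.2 and 28.03 FPKM in the WT siblings and 43.5, 53.7 and 42.0 in the mutants. Its log2 difference was -0.26 (SE 0.38, adjusted p = 0.642) with all libraries and -0.74 (SE 0.12, adjusted p = 0.0042) without WT sibling replicate 3. The other type V genes did not pass the test under either set of libraries: col5a1 (57.5, 54.8 and 41.9 against 48.5, 55.8 and 56.0 FPKM), col5a2a (92.6, 90.5 and 41.4 against 79.0, 88.9 and 82.4), col5a2b and col5a3a. None of the 3 type XI genes passed either, and in col11a1a the WT siblings stood at 172, 149 and 69.0 FPKM and the mutants at 136, 152 and 151. The type XXVII genes, whose product acts in cartilage and the vertebral column, gave log2 differences of 0.62 (col27a1a, SE 0.43) and 0.09 (col27a1b, SE 0.25) and passed the test in neither set of libraries.

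Basement membrane collagens, with type IV, the multiplexins XV and XVIII and the anchoring fibril collagen VII, had 11 genes. None passed the test with all libraries, all 11 had positive log2 differences (median 0.25), and 5 had mutants above every WT sibling, as 35% of all tested genes did. Without WT sibling replicate 3, 2 rose, col4a6 and col15a1b, and 0 fell, where 20.1% and 8.11% of all tested genes did. The median was then 0.10, or -0.02 after median-of-ratios scaling. The col15a1b gene stood at 8.45, 9.21 and 5.34 FPKM in the WT siblings and 11.8, 12.9 and 12.04 in the mutants, so each mutant was above each WT sibling. Its difference was 0.64 (SE 0.18, adjusted p = 0.0613) with all libraries and 0.43 (SE 0.086, adjusted p = 0.00881) without the third. It also passed without WT sibling replicate 2 (0.78, adjusted p = 0.0486), and without any other single library it did not.

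The alpha 5 and alpha 6 chains of type IV, which assemble together, differed in their values. The col4a6 levels were 26.8, 25.8 and 15.01 FPKM in the WT siblings and 32.2, 35.2 and 32.7 in the mutants, with a difference of 0.59 (SE 0.21, adjusted p = 0.0935) with all libraries and 0.33 (SE 0.071, adjusted p = 0.0113) without the third WT sibling. For col4a5 the values were 73.1, 86.0 and 42.0 FPKM against 78.0, 64.5 and 73.2, and the groups overlapped. The col4a5 to col4a6 ratio within a library was 2.73, 3.34 and 2.79 in the WT siblings and 2.42, 1.84 and 2.24 in the mutants. All 3 mutants had less col4a5 per col4a6 than any WT sibling, WT sibling replicate 3 included (exact permutation test, two-sided p = 0.1, adjusted p = 0.167 over 10 chain ratios).

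The col4a1 and col4a2 genes encode the chains of the common type IV trimer, and their ratio departed from the other libraries in WT sibling replicate 3. The levels of col4a1 were 8.61, 8.997 and 6.97 FPKM in the WT siblings and 10.4, 10.5 and 10.5 in the mutants. Those of col4a2 were 9.21, 10.1 and 1.76 FPKM against 9.70, 10.7 and 10.8. The ratio of col4a1 to col4a2 thus lay between 0.887 and 1.07 in 5 libraries and was 3.97 in WT sibling replicate 3. The remaining members were col18a1a (43.9, 41.6 and 25.7 against 40.5, 41.8 and 43.7 FPKM), col18a1b, col4a3, col4a4, col7a1 and col7a1l, with log2 differences from 0.03 (col4a3) to 0.59 (col7a1l) with all libraries and from -0.13 (col7a1) to 0.17 (col4a4) without WT sibling replicate 3.

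Microfibrillar collagens, type VI and the related type XXVIII, had the highest median log2 difference of the 6 classes. The 7 genes had a median log2 difference of 0.50, with mutants above every WT sibling for 5 of 7 (35% of all tested genes), and 0 passed the test with all libraries. Without WT sibling replicate 3, 4 of 7 rose, where 20.1% of all tested genes did, and the median was 0.31. The 3 genes of the classical type VI trimer were alike in this. The col6a1 levels were 38.9, 38.9 and 28.3 FPKM in the WT siblings and 44.9, 49.5 and 47.6 in the mutants, and the group means on the log2 scale were 0.42 apart (SE 0.13, adjusted p = 0.0767), or 0.28 (SE 0.068, adjusted p = 0.0201) without the third WT sibling. For col6a2 the values were 22.1, 23.6 and 15.02 FPKM against 27.8, 28.7 and 29.2, a difference of 0.50 (SE 0.16, adjusted p = 0.0791), or 0.31 (adjusted p = 0.0134) without it. For col6a3 (ENSDARG00000077139), whose long chain carries most of the von Willebrand factor A domains, they were 5.74, 5.97 and 3.20 FPKM against 7.77, 7.73 and 8.18, a difference of 0.61 (SE 0.20, adjusted p = 0.0828), or 0.38 (adjusted p = 0.0164).

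Scaling bears on these 3 calls. Without the third WT sibling, median-of-ratios scaling called none of the 3 (adjusted p from 0.062 for col6a3 to 0.254 for col6a1), and quantile normalization called col6a2 alone (adjusted p = 0.0388). The second row named col6a3 (ENSDARG00000095915) was low, with 0.348, 0.393 and 0 FPKM in the WT siblings and 0.660, 2.07 and 0.902 in the mutants. The col6a4a gene stood at 11.3, 10.98 and 4.42 FPKM against 11.2, 11.8 and 10.9, so WT sibling replicates 1 and 2 and the mutants overlapped there.

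The col28a2a gene had the largest log2 difference of all 51. Levels were 16.8, 15.4 and 3.55 FPKM in the WT siblings and 36.7, 37.5 and 26.5 in the mutants. Every mutant was above every WT sibling, and the spread within each group was also wide. The log2 difference was 1.64 (SE 0.49, adjusted p = 0.0701) with all libraries and 1.00 (SE 0.14, adjusted p = 0.00244) without WT sibling replicate 3. Its relative col28a1a stood at 6.16, 5.80 and 2.58 FPKM against 5.68, 6.31 and 5.44, with overlapping groups. The ratio of col28a2a to col28a1a was 2.73, 2.65 and 1.37 in the WT siblings and 6.46, 5.94 and 4.87 in the mutants. Type XXVIII is known in mammals as a collagen of peripheral nerve, and its role in zebrafish is less certain.

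Among the 12 FACIT genes was the only collagen that passed the test with all libraries. The col9a3 gene, which encodes 1 of the 3 chains of cartilage type IX collagen, stood at 217, 194 and 168 FPKM in the WT siblings and 130, 144 and 146 in the mutants. It was lower by -0.45 in log2(FPKM + 1) (SE 0.11, adjusted p = 0.0462) with no overlap between the groups, and by -0.55 (SE 0.078, adjusted p = 0.00261) without WT sibling replicate 3. The call with all libraries was close to the threshold and was lost after quantile normalization (adjusted p = 0.208) and when any single library other than WT sibling replicate 3 was left out (adjusted p from 0.0783 to 0.163). The partner chain col9a2 stood at 183, 162 and 120 FPKM against 112, 127 and 135, with -0.29 (adjusted p = 0.236) with all libraries and -0.47 (adjusted p = 0.0085) without the third WT sibling. The alpha 1 genes passed under neither set, at 185, 161 and 120 against 143, 156 and 177 FPKM for col9a1b and 91.0, 91.5 and 54.2 against 77.6, 83.9 and 75.3 for col9a1a. Relative to col9a2, the alpha 1 genes were therefore higher in the mutants: the summed ratio was 1.51, 1.56 and 1.46 in the WT siblings and 1.96, 1.89 and 1.87 in the mutants, with no overlap (exact p = 0.1, adjusted p = 0.167).

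Types XII and XIV, which bind the surface of type I fibrils, each have a and b copies that differed in direction or size. The col12a1b gene stood at 9.89, 8.96 and 6.77 FPKM in the WT siblings and 11.4, 12.01 and 12.1 in the mutants, a difference of 0.44 (SE 0.14, adjusted p = 0.0743) with all libraries and 0.30 (SE 0.084, adjusted p = 0.0298) without the third WT sibling. Its copy col12a1a, at 27.2, 25.9 and 17.1 against 24.9, 25.9 and 26.3 FPKM, did not pass under either. The col14a1b gene had 13.2, 14.97 and 4.93 FPKM in the WT siblings and 9.20, 9.94 and 7.92 in the mutants, and without the third WT sibling its log2 value was lower by -0.59 (SE 0.11, adjusted p = 0.00639). The copy col14a1a had 2.297, 2.82 and 0.819 FPKM against 2.77, 4.44 and 4.16, and its difference was 0.74 (SE 0.29, adjusted p = 0.123). The other FACIT genes, col16a1, col21a1 and the pair of col19a1 rows, did not pass under either set, with log2 differences from 0.08 to 0.67 with all libraries.

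Network and membrane collagens made up 5 genes. Type X, which zebrafish express in cartilage and in bone-forming cells, had 53.9, 49.0 and 38.2 FPKM of col10a1a in the WT siblings and 38.6, 44.7 and 39.0 in the mutants. The difference was -0.19 (SE 0.14, adjusted p = 0.342) with all libraries and -0.33 (SE 0.085, adjusted p = 0.0228) without the third WT sibling. The type VIII genes col8a1a (28.8, 29.0 and 12.9 against 26.7, 22.6 and 25.5 FPKM) and col8a2 (7.65, 7.99 and 1.62 against 8.57, 7.77 and 8.12) passed under neither. Of the hemidesmosome collagen XVII, col17a1a stood at 64.9, 67.2 and 23.5 FPKM against 57.1, 59.7 and 53.6, where 0.27 (SE 0.37) turned to -0.22 (adjusted p = 0.0485) without WT sibling replicate 3, and col17a1b overlapped under both.

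**Figure D3:**
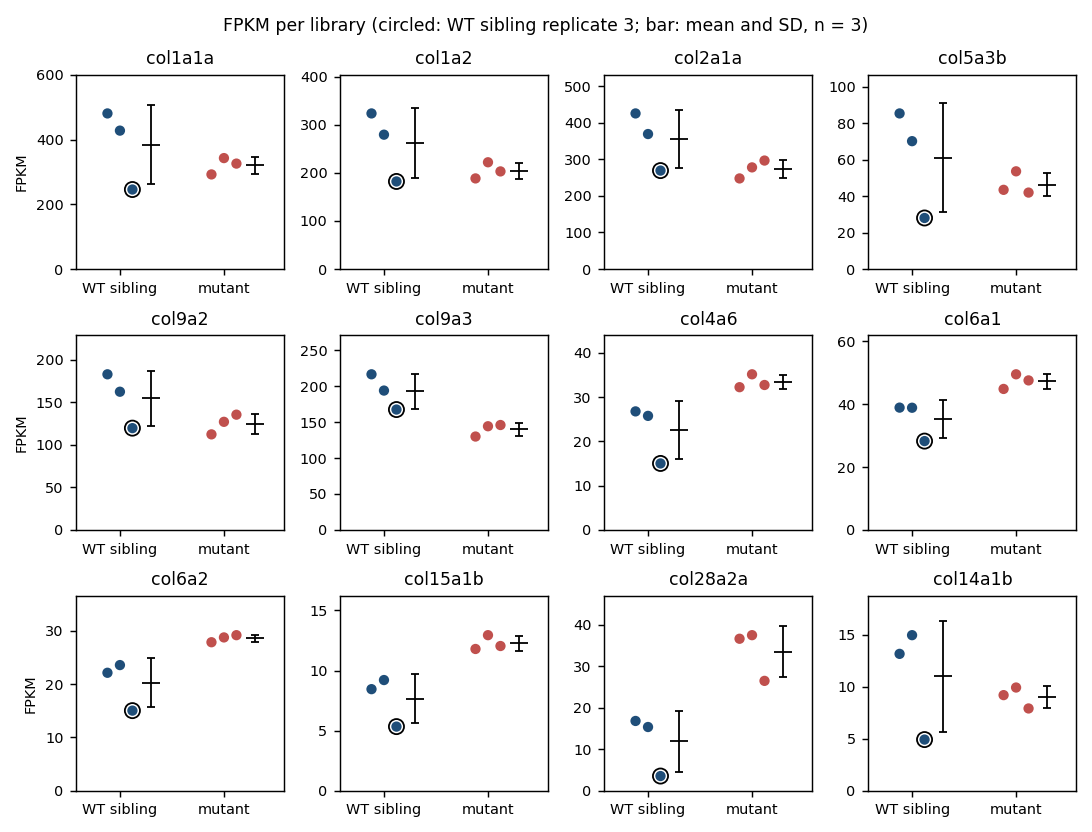
FPKM of 12 collagen genes in each library (points; WT siblings blue, mutants red), with group means and SD (n = 3) beside them and WT sibling replicate 3 circled. In the type I and II genes the circled library lies among or below the mutants and the other WT siblings lie above them, while in col6a1, col6a2, col15a1b and col28a2a all mutants lie above all WT siblings.

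The make-up of the collagen transcripts within a library was compared next, with WT sibling replicate 3 included. Collagens took 0.763%, 0.701% and 0.381% of all FPKM in the WT siblings and 0.575%, 0.630% and 0.610% in the mutants, so their total overlapped (exact permutation test, two-sided p = 1). Within the collagen total, microfibrillar collagens took 2.95%, 3.25% and 3.00% in the WT siblings and 5.49%, 5.29% and 4.85% in the mutants. Basement membrane collagens took 5.45%, 6.33% and 5.42% against 8.10%, 7.08% and 7.50%, and the 3 type I genes took 33.8%, 32.6% and 32.0% against 28.6%, 29.6% and 28.3%. The whole fibrillar class took 65.0%, 63.3% and 61.1% against 59.0%, 60.8% and 59.7%, a small step at the nearest libraries. None of these shares of the collagen total overlapped between the groups, and shares of 1 total are not independent of each other. Shares of the collagen total were not among the planned comparisons and carry no test. How often shares of other gene sets overlap was not determined. The FACIT share, at 21.98%, 22.1% and 26.3% against 21.8%, 21.7% and 22.995%, did overlap.

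The summed type I to type VI ratio was 14.8, 12.7 and 11.95 in the WT siblings and 7.59, 8.06 and 7.77 in the mutants. The type II to type VI ratio was 7.28, 6.32 and 6.45 against 3.86, 4.06 and 4.22. On the log2 scale these ratios were lower in the mutants by -0.75 and -0.72, and all 3 WT siblings, replicate 3 included, stood above all 3 mutants. Both ratios, and that of col28a2a to col28a1a, were chosen after the levels had been seen, so they carry no test. A factor that scales a whole library cancels in such ratios. A departure that differs between genes does not cancel, and WT sibling replicate 3 had such departures, as in its col4a1 to col4a2 ratio of 3.97.

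Of 10 ratios between chains that assemble together, 3 were higher and 3 lower in every mutant than in every WT sibling (exact p = 0.1 and adjusted p = 0.167 for each of the 6). Single genes were above or below without overlap in 35% and 11.7% of all tested genes. How often ratios of other gene pairs do not overlap was not determined. The chains of type I stayed near each other. The ratio of summed col1a1a and col1a1b to col1a2 was 2.58, 2.62 and 2.34 in the WT siblings and 2.71, 2.62 and 2.70 in the mutants. This ratio counts among the 3 higher, but its nearest libraries were almost equal. They were WT sibling replicate 2 at 2.62252 and mutant replicate 2 at 2.62335. The col6a3 to col6a1 ratio, with both col6a3 rows summed, was 0.156, 0.164 and 0.113 against 0.188, 0.198 and 0.191. The low second row (ENSDARG00000095915), at 2.07 FPKM in mutant replicate 2, added to these values. The ratio without that row was not examined. The col9a3 to col9a2 ratio was 1.19, 1.20 and 1.40 against 1.16, 1.14 and 1.08, a small step at the nearest libraries. The sixth was col8a1a to col8a2, at 3.77, 3.63 and 7.96 against 3.11, 2.90 and 3.14.

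Of 11 ratios between a and b copies of a gene, 3 were higher and 3 lower without overlap. Here too the rate for ratios of other gene pairs was not determined, so the count is not a result particular to collagen copies. These ratios were also added after the levels had been seen and carry no test. The col12a1a to col12a1b ratio was 2.74, 2.89 and 2.52 in the WT siblings and 2.17, 2.16 and 2.17 in the mutants. The col14a1a to col14a1b ratio was 0.174, 0.188 and 0.166 against 0.301, 0.447 and 0.525, a log2 difference of 1.23. In both pairs the WT siblings agreed closely, replicate 3 included, although its levels of either copy were low. The other ratios without overlap were col2a1a to col2a1b and col18a1a to col18a1b, both lower in the mutants, and col27a1a to col27a1b and col5a3a to col5a3b, both higher.

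**Figure D4:**
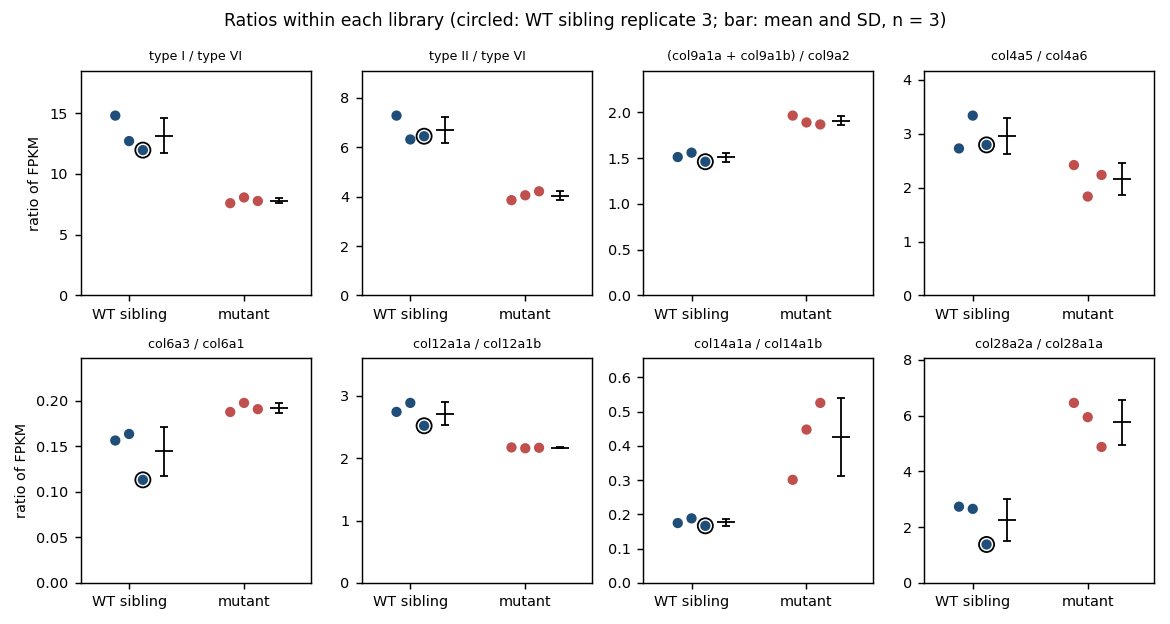
Ratios of FPKM within each library (points; WT siblings blue, mutants red), with group means and SD (n = 3) and WT sibling replicate 3 circled. The 8 panels are a selection of ratios without overlap between the groups, so their separation is not a result of its own. Ratios that overlap, such as col4a1 to col4a2 and col6a1 to col6a2, are not shown. The type I to type VI ratio lies between 11.95 and 14.8 in the WT siblings and between 7.59 and 8.06 in the mutants.

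Collagen chains are hydroxylated and folded in the endoplasmic reticulum, carried out in large vesicles, trimmed, cross-linked and bound by receptors and small proteoglycans, and 6 lists of such genes were examined. The lists are incomplete, since not every chosen symbol was found. For modification and folding 21 of 29 were found, for secretion 18 of 20, and for propeptide cleavage 9 of 15. For crosslinking 10 of 14 were found, for receptors 15 of 20, and for proteoglycans and glycoproteins 32 of 38. Of the 104 tested genes of these lists, 13 rose and 1 fell with all libraries, where 8.23% and 3.98% of all tested genes did. Without WT sibling replicate 3, 37 rose and 2 fell, where 20.1% and 8.11% of all tested genes did. The median log2 difference of the lists was 0.26 with all libraries and 0.19 without it, against 0.16 and 0.11 for all tested genes. Median-of-ratios scaling gave 5 higher and 1 lower with all libraries (3.62% and 5.7% of all tested genes). Without WT sibling replicate 3 it gave 19 higher and 12 lower, where 11% and 13.9% of all tested genes were. Quantile normalization without that library gave 27 higher and 6 lower, where 12.1% and 11.6% of all tested genes were. With WT sibling replicate 1 left out 4 were higher, and with mutant replicate 1, 2 or 3 left out 2, 2 and 1 were. Calls over all tested genes also dropped in these fits, to 215, 152, 165 and 117 higher.

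In the modification and folding list 3 of 21 genes rose and 0 fell, where 8.23% and 3.98% of all tested genes did. Without WT sibling replicate 3, 9 rose and 0 fell, where 20.1% and 8.11% of all tested genes did. The prolyl isomerase gene fkbp9 stood at 51.7, 48.8 and 48.3 FPKM in the WT siblings and 78.1, 73.8 and 76.99 in the mutants, a difference of 0.61 (SE 0.074, adjusted p = 0.00696). The prolyl 3-hydroxylase p3h1 (24.3, 27.4 and 25.3 against 36.9, 35.4 and 36.1 FPKM) rose by 0.48 and serpinh1a (28.7, 35.5 and 30.6 against 47.7, 44.8 and 48.7) by 0.56, the latter a copy of the collagen chaperone HSP47. In these 3 genes WT sibling replicate 3 lay with the other WT siblings. After median-of-ratios scaling of all libraries fkbp9 still passed (adjusted p = 0.0358), while p3h1 (adjusted p = 0.0777) and serpinh1a (adjusted p = 0.0555) did not. The second copy, serpinh1b, stood at 58.5, 60.0 and 119 FPKM against 143, 146 and 139, with WT sibling replicate 3 nearest the mutants (0.93, SE 0.26, adjusted p = 0.0568, or 1.255 with adjusted p = 2.44e-05 without it). The fourth by p was fkbp10a, with 0.55 (adjusted p = 0.0538), or 0.40 (adjusted p = 0.0155) without WT sibling replicate 3.

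In the secretion list 1 of 18 genes rose, the cargo receptor gene lman1 (20.99, 21.2 and 17.9 against 26.0, 27.9 and 27.8 FPKM, a difference of 0.43, adjusted p = 0.0344). With all libraries 8.23% of all tested genes rose and 3.98% fell, which is the background for each list here. The procollagen export genes sec24d (0.67, adjusted p = 0.0693), mia3 (0.49, adjusted p = 0.0716) and sec31a (0.35, adjusted p = 0.0977) did not pass with all libraries. In the fit that left out WT sibling replicate 3, 4 of 18 rose, among them sec24d (0.43, adjusted p = 0.00774) and mia3 (0.32, adjusted p = 0.018), and 1 fell, klhl12 (-0.73, adjusted p = 0.00434), which encodes a ubiquitin ligase adaptor of large transport vesicles. Those 4 are 22.2% of the list, near the 20.1% of all tested genes that rose in that fit, where 8.11% fell. In the propeptide cleavage list 1 of 9 rose, the tolloid-like protease gene tll1, from 0.454, 0.518 and 0.0809 FPKM in the WT siblings to 1.15, 1.167 and 0.921 in the mutants. The adamts3, bmp1a and adamts2 genes had adjusted p from 0.0677 to 0.205 with all libraries, and without WT sibling replicate 3 tll1, adamts3 (0.40, adjusted p = 0.0455) and bmp1a (0.26, adjusted p = 0.0427) rose. In the crosslinking list 0 of 10 rose and 1 fell, the transglutaminase gene tgm2b, from 24.1, 26.7 and 20.3 to 16.2, 15.5 and 14.1 FPKM (-0.60, SE 0.12, adjusted p = 0.0251). The lysyl oxidase genes loxl1 (0.49, adjusted p = 0.0703) and loxl2a (0.46, adjusted p = 0.0777) and tgm2l did not pass with all libraries. With WT sibling replicate 3 left out, loxl1 (0.39, adjusted p = 0.0477) and loxl2a (0.30, adjusted p = 0.0214) rose and tgm2b fell.

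In the receptor list 4 of 15 rose and 0 fell (8.23% and 3.98% of all tested genes), with a median of 0.73 (0.16 for all tested genes). Without WT sibling replicate 3, 7 rose and 0 fell (20.1% and 8.11% of all tested genes), with a median of 0.27 (0.11 for all tested genes). All 4 were integrin chains that bind collagen: itgb1b.2 (15.5, 16.9 and 15.3 FPKM in the WT siblings, 27.8, 27.8 and 25.5 in the mutants; 0.73, adjusted p = 0.00649), itga2.3 (0.107, 0.167 and 0.199 against 0.974, 1.0998 and 0.839), itga11a (3.53, 3.09 and 2.06 against 6.001, 6.07 and 7.26) and itga1 (2.68, 3.42 and 2.25 against 4.97, 4.50 and 4.81). No mutant overlapped a WT sibling in any of them. Among proteoglycans and glycoproteins that sit on fibrils, 4 of 31 rose and 0 fell: kera (18.9, 22.7 and 21.4 against 35.2, 30.9 and 31.7 FPKM), thbs4a (2.61, 2.24 and 1.302 against 4.92, 4.59 and 5.08), tnc (35.2, 32.4 and 25.4 against 44.95, 43.7 and 47.4) and epyc (29.6, 32.0 and 31.4 against 40.9, 37.1 and 41.6). Of these 31, 12 rose and 0 fell without WT sibling replicate 3, where 20.1% and 8.11% of all tested genes did. Over all 6 lists, the genes still called higher after median-of-ratios scaling of all libraries were fkbp9, itgb1b.2, itga2.3, itga11a and thbs4a. The calls of lman1, tll1, itga1, kera, tnc and epyc were lost there (adjusted p from 0.0501 for kera to 0.288 for epyc), while tgm2b stayed lower. Keratocan is a corneal proteoglycan, and thrombospondin 4 and tenascin C are made at tendons and muscle ends.

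Markers of the cells that make collagen, none of them a collagen, were read beside these values, and their part in the results was not tested. The 4 of 5 cartilage markers found summed to between 108 and 143 FPKM in the WT siblings and between 133 and 138 in the mutants, with the lowest sum in WT sibling replicate 3 and 0 called. The 6 of 7 tendon and fibroblast markers found summed to between 226 and 328 against 306 to 320 FPKM, again lowest in WT sibling replicate 3 and with 0 called. The largest part of this sum was postnb, at 230, 245 and 146 FPKM in the WT siblings. WT sibling replicate 3 was the lowest library for 3 of the 6 markers and the highest for twist1a. The 2 of 4 notochord markers found summed to between 20.3 and 27.7 against 34.1 to 37.0 FPKM. With all libraries shha was called higher (adjusted p = 0.034) and emilin3a was not (adjusted p = 0.0726), and both were without WT sibling replicate 3. Whether shha is confined to the notochord was not examined. Basal epidermis (4 markers) and bone (2 of 3 markers) had overlapping sums and 0 called with all libraries. The largest part of the epidermal sum was krt4, at 3794, 3401 and 2945 FPKM against 2932, 3563 and 2887. Whether krt4 is confined to basal cells was not examined, and nor was the sum without it. The overlap of the epidermal sum is therefore not a result about basal cells. The epidermal keratin gene krtt1c19e was lower without overlap (1235, 1285 and 1090 against 927, 999.6 and 867 FPKM, adjusted p = 0.0779). Without WT sibling replicate 3 krtt1c19e fell (-0.44, adjusted p = 0.00591). In itga6b every mutant was higher instead (11.2, 11.1 and 6.87 against 12.8, 12.98 and 12.97 FPKM, adjusted p = 0.151), and tp63 overlapped. Among other tissues, 2 fast muscle markers summed to between 9168 and 10708 FPKM in the WT siblings and between 6615 and 8201 in the mutants, with 0 called with all libraries and both lower without WT sibling replicate 3. The 1 red cell marker found, a globin gene, fell from between 863 and 1245 to between 66.5 and 162 FPKM. The 2 neuron markers summed to between 80.7 and 95.1 against 113 to 119 FPKM. Of them elavl3 was called higher (49.5, 54.8 and 59.9 against 81.2, 74.9 and 87.0 FPKM, adjusted p = 0.0203). In snap25a the groups overlapped (39.9, 40.3 and 20.8 against 35.5, 38.4 and 31.8 FPKM), so the higher sum was not shared by both. The 2 lens markers summed to between 822 and 1006 against 649 to 657 FPKM with 1 higher and 1 lower, and the liver marker overlapped. None of these markers was at 0 in any library.

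All 49 collagen symbols were found in a RefSeq gene table of the assembly GRCz12tu, which is not the build of the files and was used for gene order alone. In it col4a1 and col4a2, col4a3 and col4a4, and col4a5 and col4a6 are immediate neighbours, and col6a1 and col6a2 have 1 protein-coding gene between them. The mutants' lower col4a5 to col4a6 ratio was thus between adjacent genes. 2 collagen genes share the chromosome of p2ry11: col5a3a has 5 protein-coding genes between itself and p2ry11 and passed the test in neither set of libraries, and col1a1a has 630. Both groups came from heterozygous parents, so near p2ry11 the mutation and linked parental alleles cannot be told apart.

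The ceramide transporter genes that share the name pattern did not pass with all libraries. The col4a3bpb gene stood at 16.5, 16.99 and 4.81 FPKM in the WT siblings and 19.97, 20.6 and 18.99 in the mutants (0.77, SE 0.41, adjusted p = 0.216), and it rose without WT sibling replicate 3 (0.23, adjusted p = 0.0467). The levels of col4a3bpa were 4.36, 5.05 and 2.76 FPKM against 4.11, 4.04 and 3.70, and it passed under neither. Another 4 genes carry other names in the files but are collagens in a gene symbol table: col23a1a, col23a1b, a further col7a1l and col28a2b. None passed with all libraries, and without WT sibling replicate 3 col28a2b rose by 0.44 (adjusted p = 0.0453), from 0.543, 0.708 and 0.112 FPKM in the WT siblings to 1.09, 1.04 and 1.51 in the mutants.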

How the data were processed

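TRIzol RNA of pooled larvae, 3 mutant and 3 WT sibling samples, was sequenced by Illumina. Reads were trimmed (cutadapt), aligned (HISAT2) and assembled (StringTie) by the authors, who deposited FPKM per gene calculated with Ballgown. The unit is not stated for every library, and where it is blank FPKM was assumed from the range of the values. Versions in the submitters' processing notes are cutadapt 1.17, FastQC 0.11.7, StringTie 1.3.3 and HISAT2 2.1.0. These notes list GRCh37 as the build and the methods list GRCz11, and the gene IDs are zebrafish IDs. Strand and gene filters are not given in the sources used here. The labels name no batch. Counts were not used here, so the depth behind each value is unknown.

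The 18432 genes with a mean of at least 0.5 FPKM were tested as log2(FPKM + 1) with limma 3.58.1 in R 4.3.3 (eBayes with trend, no covariate, Benjamini-Hochberg), and 639 were not. A log2 difference on this scale understates the change of low genes. Code ran in Python 3.11.15, and the procedure was tested on simulated data. As alternatives, each library was left out, the pseudocount was set to 0.1 or 0.5, the filter was dropped or raised to 1 FPKM, values were rescaled (TPM, quantile normalization, median-of-ratios), and a replicate block or library covariate was added. The fit with the library covariate was an ordinary linear model without eBayes. Rescaling without WT sibling replicate 3, the copy ratios and the ratios between types were added after values had been seen. Shares within the collagen total were not among the planned comparisons.

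The members, lists, classes and tests were chosen with earlier results of these data known. Named genes are p2ry11, all called collagen genes, in each class the 3 most abundant members and the 2 with the largest difference, every chain of the ratios, and the 4 smallest p of each list. Others, such as serpinh1b, were named after their values had been seen.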

Additional observations from a re-analysis of the deposited data

How the results depend on the processing

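The counts of collagen calls depended on single libraries. With each library left out in turn, 0 to 7 collagen genes were higher and 0 to 12 lower (median difference -0.04 to 0.37), the upper counts without WT sibling replicate 3. By class these counts were 0 to 7 lower for fibrillar genes (median -0.22 to 0.30), 0 to 2 higher for basement membrane genes (0.10 to 0.37), and 0 to 5 higher and 0 to 5 lower for the other types (-0.0068 to 0.50). The lists of processing and binding genes gave 1 to 37 higher and 0 to 2 lower. Left-out ranges were -0.28 to 0.37 for col2a1b, -0.22 to 0.52 for col17a1a and -0.57 to 0.59 for col24a1. The 1 lower collagen call (col9a3, of the other types) became 0 with a pseudocount of 0.1, TPM, quantile normalization, the replicate block and the library covariate. Under the covariate, 0 genes were called in all, the list calls became 0 higher and 0 lower, and medians were -0.46 for collagens, -0.60 for fibrillar and -0.34 for other types. That fit was an ordinary linear model without eBayes, so for the calls the covariate and the changed test cannot be told apart. List calls were 5 higher under median-of-ratios scaling, and TPM gave 0 lower. Quantile normalization moved the log2 col6a3 to col6a1 ratio from 0.43 to 0.19. Without WT sibling replicate 3, quantile normalization gave 4 higher and 11 lower collagens (fibrillar 6 lower, basement membrane 2 higher, other 2 higher and 5 lower) and 27 higher and 6 lower list genes, with col8a1a turning to -0.29 and col24a1 to -0.69. Median-of-ratios scaling without that library gave 2 higher and 16 lower (fibrillar 8 lower with median -0.31, basement membrane 1 higher and 1 lower, other 1 higher and 7 lower) and 12 lower list genes, with col2a1b at -0.42, col5a2a at -0.28, col4a5 at -0.29, col17a1a at -0.36, col9a1a at -0.35, col8a1a at -0.35 and col24a1 at -0.70. Fewer libraries or another scale define these settings, and the cause beyond that was not tested. The replicate numbers were not treated as pairs. Deviations of same-numbered libraries from their group means correlated at 0.016, 0.0718 and 0.138, and those of other pairs at -0.132 to 0.113. With so few libraries these values cannot settle whether same-numbered libraries belong together. With the replicate block 1 collagen gene was higher (col28a2a, of the other types) and 0 lower, and 8 list genes were higher. With depth unknown, the counting error of low genes was not estimated.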
